A study of Mus musculus with 11 samples.

Results

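Aminoacyl-tRNA synthetases were followed across the 3 host genotypes as a family of 36 genes, chosen by symbol from the 22068 symbols measured. The family holds 20 cytosolic enzymes, whose symbols carry no suffix, and 16 mitochondrial enzymes, whose symbols end in 2, Lars2 among them. All 36 symbols were found, and all 36 were among the 10557 genes tested. RNA was sequenced from CD11b-positive myeloid cells, enriched with magnetic beads and not cultured, out of subcutaneous tumours that had received 15 Gy of local radiation and were taken on day 4. All hosts had a C57BL/6 background, and every tumour, those of WT hosts included, was irradiated. STAT3KO hosts (4 libraries) carried MxCre with Stat3flox, TLR9KO hosts (4 libraries) were TLR9-/-, and WT hosts (3 libraries) served as the controls of both. The Mx promoter, which drives the Cre of STAT3KO hosts, responds to interferon and is not restricted to myeloid cells. The age of the hosts, the tumour line and whether WT hosts carried MxCre were not given in the sources used here.

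Each synthetase joins 1 amino acid to its tRNA and so supplies charged tRNA to the ribosome. The cytosolic enzymes serve translation in the cytoplasm, and several of them are held with scaffold proteins in the multisynthetase complex. The mitochondrial enzymes are encoded in the nucleus, imported, and serve the few proteins made from mitochondrial DNA. Gars and Kars each give rise to both forms of their enzyme, which is why no separate mitochondrial gene exists for glycine or lysine. When amino acids run short, uncharged tRNA activates the kinase encoded by Eif2ak4 (GCN2), and the transcription factor ATF4 then raises many genes of amino acid uptake and synthesis, several cytosolic synthetases among them.

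Values are RPKM, reads per kilobase of transcript and per M mapped reads, as deposited. Depth, read from the steps of the microRNA values, was between 30.0 and 53.45 M reads, so that a gene 2 kb long has 60 to 107 reads behind each RPKM. Stat3 was 18.2 ± 1.85 RPKM in STAT3KO and 73.1 ± 2.78 RPKM in WT, and Tlr9 was 5.77 ± 1.72 RPKM in TLR9KO and 30.3 ± 10.6 RPKM in WT (errors of RPKM values are SD throughout, with n = 4 for each knockout and 3 for WT). Summed macrophage markers (6 of 7 in the files) were 3177 to 3940 RPKM in STAT3KO, 2519 to 3339 in TLR9KO and 2501 to 2797 in WT, while the B cell and epithelial lists summed to less than 1 RPKM in every library. Melanocyte markers summed to 796 to 1225 RPKM in STAT3KO, 462 to 1337 in TLR9KO and 423 to 1368 in WT, and none of the 5 tested passed a test between groups. In bulk RNA, fewer cells of a type and less RNA per cell cannot be told apart.

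Cytosolic synthetases were the more abundant set in all groups. The median cytosolic gene averaged 30.7 RPKM in STAT3KO, 26.4 RPKM in TLR9KO and 30.2 RPKM in WT, and the median mitochondrial gene 4.24, 3.84 and 3.35 RPKM in STAT3KO, TLR9KO and WT. In WT the highest cytosolic members were Gars (76.7 ± 5.67 RPKM), Aars (58.6 ± 5.62 RPKM) and Sars (57.2 ± 5.27 RPKM), the enzymes for glycine, alanine and serine. The spreads of Aars and Sars overlap, so their order in WT is not resolved. The lowest were Cars (16.2 ± 0.90 RPKM), Lars (15.6 ± 1.56 RPKM) and Iars (15.0 ± 2.04 RPKM), for cysteine, leucine and isoleucine, which lie within each other's spread. Among mitochondrial members in WT, Lars2 came first at 42.7 ± 6.59 RPKM, ahead of Iars2 (14.6 ± 0.92 RPKM) and Tars2 (11.3 ± 1.10 RPKM). Pars2 (1.34 ± 0.38 RPKM), Mars2 (1.32 ± 0.35 RPKM) and Nars2 (1.27 ± 0.08 RPKM) came last and do not differ beyond their spread. The remaining mitochondrial genes averaged from 1.37 RPKM (Wars2) to 8.75 RPKM (Fars2) in WT.

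**Figure D1:**
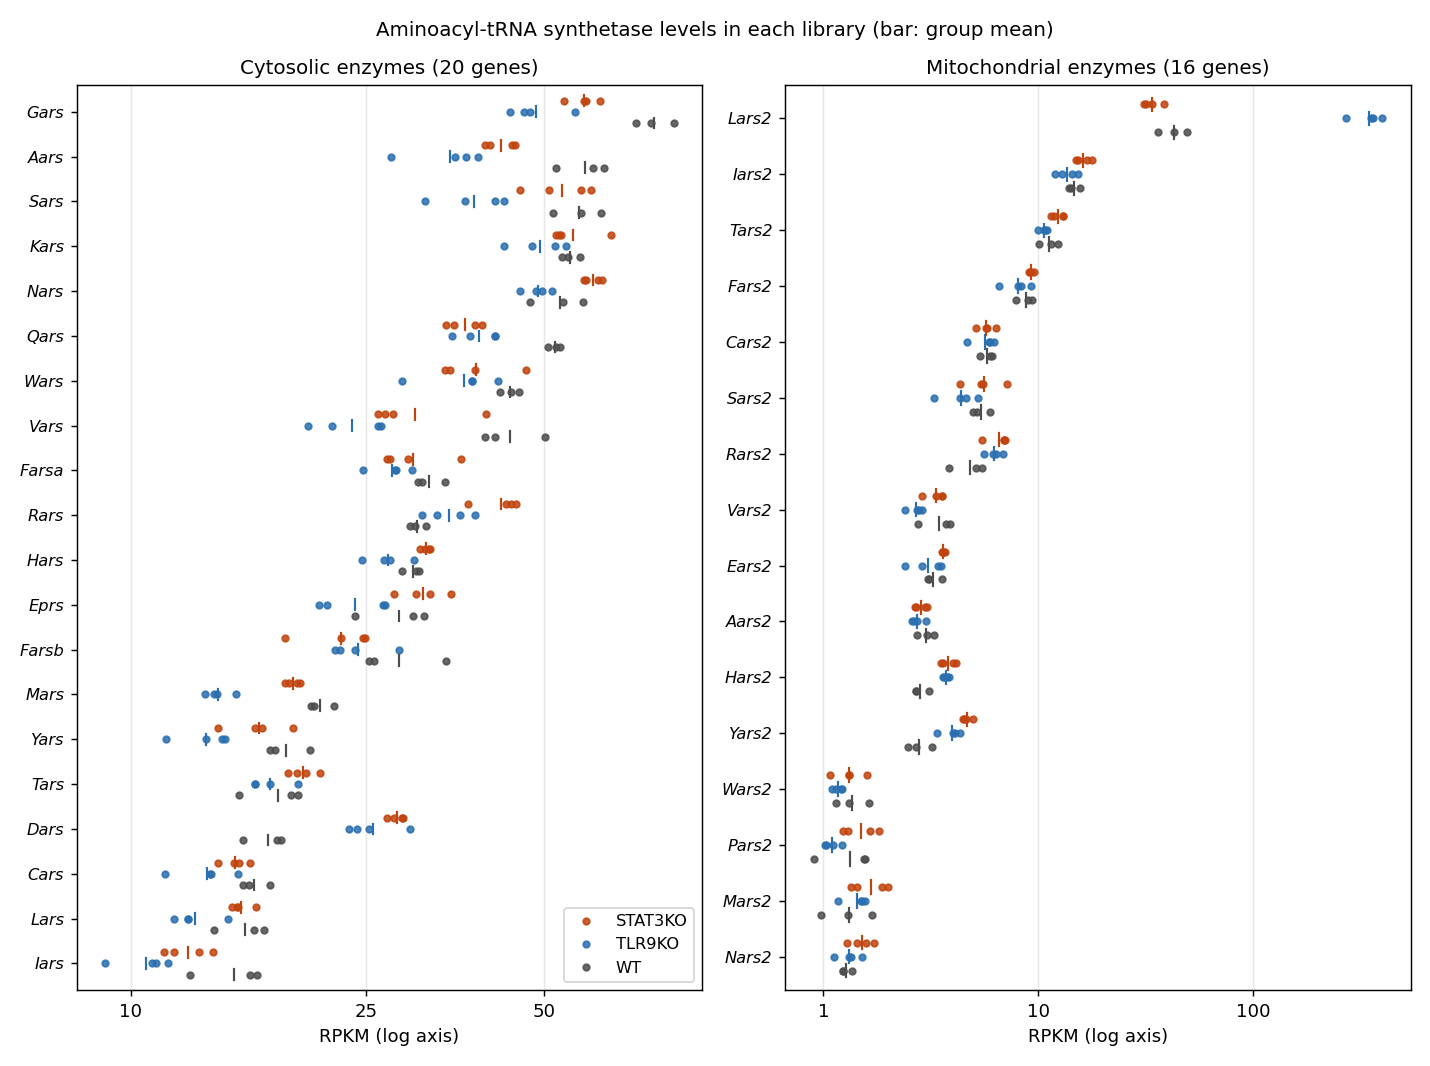
RPKM (log axis) of the 20 cytosolic genes, left, and the 16 mitochondrial genes, right, in each library of STAT3KO, TLR9KO and WT, with a bar at each group mean and genes in order of their WT mean. Lars2 in the 4 TLR9KO libraries lies at 271 to 399 RPKM, apart from all other points, and several cytosolic genes, such as Gars, Aars and Vars, have their TLR9KO points left of all WT points.

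Lars2, which charges the mitochondrial leucine tRNAs, stood apart from its family in TLR9KO. It was 33.9, 31.2, 38.4 and 31.8 RPKM in STAT3KO libraries, 364, 399, 354 and 271 RPKM in TLR9KO libraries, and 49.2, 35.99 and 43.1 RPKM in the WT ones. Every TLR9KO library thus held several times the Lars2 of any other library, and STAT3KO and WT overlapped. In TLR9KO the Lars2 mean was 8.12 times that of WT, a log2 difference of 2.99 ± 0.14 (SE, limma adjusted p = 1.93e-06). In STAT3KO against WT the difference was -0.32 ± 0.14 (limma adjusted p = 0.0905) and did not pass the threshold of 0.05. In STAT3KO minus TLR9KO it was -3.31 ± 0.13 (limma adjusted p = 2.73e-07). The STAT3KO difference did pass without TLR9KO replicate 4 (adjusted p = 0.0498) or without WT replicate 2 (-0.44, adjusted p = 0.0409). Among the 10557 genes tested, Lars2 had the largest rise and the smallest p in TLR9KO against WT.

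Lars2 held most of the summed RPKM of its set in TLR9KO. Lars2 made up 29.7% ± 2.56 of the summed mitochondrial synthetase RPKM in STAT3KO, 83.0% ± 2.60 in TLR9KO and 37.3% ± 2.48 in WT (SD). By level it ranked 6 to 12 of the 36 genes in STAT3KO libraries, 1 in every TLR9KO library and 8 or 9 in WT libraries. Without Lars2, the mitochondrial sum was 80.1 ± 2.55 RPKM in STAT3KO, 69.8 ± 2.93 RPKM in TLR9KO and 71.3 ± 4.45 RPKM in WT. The cytosolic sum was 659 ± 43.4, 563 ± 32.9 and 710 ± 37.8 RPKM in STAT3KO, TLR9KO and WT, with every TLR9KO library (540 to 612 RPKM) below every WT library (679 to 752 RPKM). Cytosolic leucyl-tRNA synthetase, Lars, was 15.3 ± 0.65 RPKM in STAT3KO, 12.9 ± 1.18 RPKM in TLR9KO and 15.6 ± 1.56 RPKM in WT, and passed none of the 3 tests.

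In the RefSeq order of assembly GRCm38.p6, the 4 tested genes on either side of Lars2 changed by less than Lars2 in TLR9KO. Exosc7, a subunit of the RNA exosome, lies next to Lars2 and was 11.9 ± 0.76 RPKM in STAT3KO, 8.49 ± 0.65 RPKM in TLR9KO and 4.94 ± 0.16 RPKM in WT. Its difference in TLR9KO was 0.67 ± 0.08 (limma adjusted p = 0.000424), and that in STAT3KO was 1.11 ± 0.08 (limma adjusted p = 1.34e-05), with 0.44 ± 0.08 between the knockouts (limma adjusted p = 0.00299). Limd1, on the other side, was 18.9 ± 1.93, 19.1 ± 0.80 and 22.8 ± 2.25 RPKM in STAT3KO, TLR9KO and WT (TLR9KO minus WT -0.24 ± 0.09, limma adjusted p = 0.0758). Further out in TLR9KO, Lztfl1 (0.88 ± 0.15), Sacm1l (0.45 ± 0.10) and Tmem42 (0.30 ± 0.09) rose, and Zdhhc3 (-0.42 ± 0.08), Tgm4 (-0.28 ± 0.08) and Gm10052 (-0.26 ± 0.09) fell, with limma adjusted p-values from 0.00174 to 0.0422. With a correction for GC content and length none of these 3 rises passed (Lztfl1 0.35, adjusted p = 0.12, Sacm1l -0.03, adjusted p = 0.846, and Tmem42 0.23, adjusted p = 0.138), nor did the fall of Zdhhc3 (adjusted p = 0.0538). Tlr9 lies on the same chromosome as Lars2. Of the 143 tested genes between Tlr9 and Lars2, 52 (36.4%) passed the test in TLR9KO, against 34.0% of 579 on that chromosome and 30.6% of all genes. Of the 143 in that interval 19 rose and 33 fell, while 125 rose and 72 fell of the 579 on the chromosome. Among all 10557 genes 2107 (20.0%) rose and 1122 (10.6%) fell. Falls thus outnumbered rises in the interval, unlike on the chromosome and among all genes, and this difference was not tested. The highest log2 difference among the 143 was 0.96. In the interval 3 genes (2.10%) passed with a log2 difference of at least 1 in either direction, and these 3 were falls. The shares were 2.25% on the chromosome and 2.18% of all genes.

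**Figure D2:**
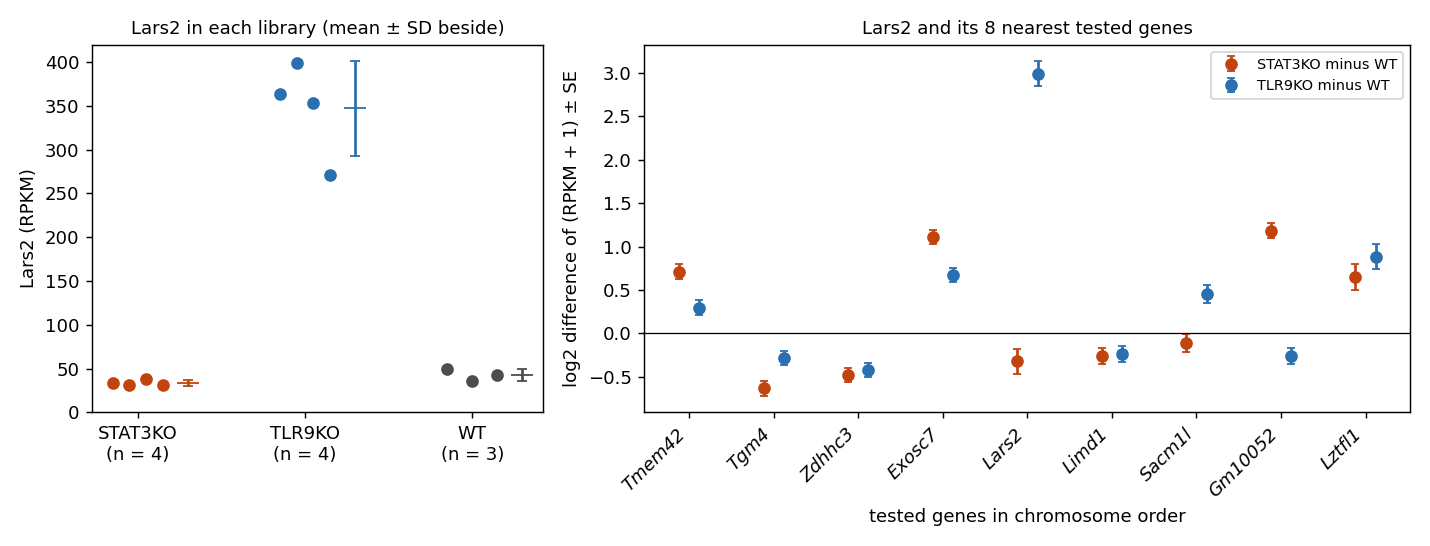
Left, Lars2 in RPKM in each library with the mean ± SD beside the points. Right, log2 difference of (RPKM + 1) ± SE for Lars2 and the 8 nearest tested genes, STAT3KO minus WT and TLR9KO minus WT. The TLR9KO point of Lars2, at 2.99, lies above all other points, the next highest being that of Gm10052 in STAT3KO at 1.18.

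The genes whose profile over the 11 libraries was most like that of Lars2 were Calml4 (Pearson r = 0.984), Aph1b (0.979), Rnft1 (0.974), Gm11428 (0.973) and Gnpnat1 (0.964). These r describe log2(RPKM + 1) values that share library and depth. Gm11428 had the highest level of them, 136 ± 9.15 RPKM in STAT3KO, 393 ± 70.2 RPKM in TLR9KO and 165 ± 8.97 RPKM in WT. Calml4 was 0.84 ± 0.18, 7.87 ± 0.66 and 0.72 ± 0.24 RPKM in STAT3KO, TLR9KO and WT. Calml4 lies on the chromosome of Lars2 and Tlr9. Its log2 difference in TLR9KO against WT, 2.38, was the highest there after that of Lars2. The chromosomes of the other genes with like or opposite profiles are not given here. The part of position on that chromosome in these profiles was not tested. The most opposite profiles were those of Pdxk (-0.975), Glb1 (-0.966), which encodes lysosomal beta-galactosidase, and 1700112E06Rik (-0.965). Glb1 was 42.1 ± 6.59 RPKM in STAT3KO, 14.6 ± 1.58 RPKM in TLR9KO and 37.9 ± 3.54 RPKM in WT. After the group means were taken off, the highest r with Lars2 were those of Zfp191 (0.897), Ywhaq (0.888), Med20 (0.854), Cox19 (0.845) and 2610029G23Rik (0.827), none of which was on the earlier list. Of 18 listed symbols of ribosomal and other structural RNA genes 4 were matched, Rn4.5s, Rpph1, Rmrp and Terc. None of them encodes a ribosomal RNA, so this list gave no level of ribosomal RNA. The 4 summed to 3.07 ± 1.31 RPKM in STAT3KO, 3.94 ± 0.83 RPKM in TLR9KO and 1.27 ± 0.50 RPKM in WT. Their part in the Lars2 result, and that of ribosomal RNA reads, was not tested.

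The comparison of TLR9KO with WT asks which synthetase transcripts differ when the DNA receptor gene Tlr9 is missing. Cytosolic synthetases were lower on balance: 8 of 20 fell, 1 rose and 11 did not pass, with 18 of 20 differences below 0 and a median log2 difference of -0.26. Of all genes tested, 10.6% fell and 20.0% rose in this comparison, and their median was 0.04. Of the 16 mitochondrial genes 3 rose (Lars2, Yars2 and Hars2), none fell, and the median was -0.08. By position of the libraries alone, 11 cytosolic members had all TLR9KO values below all WT values and 1 had all above, against 13.3% and 22.8% of all genes. With a correction for GC content and length, 11 cytosolic members fell and 0 rose, with 6.48% and 8.51% of all genes. With median-ratio scaling, 10 fell and 1 rose (14.6% and 15.9% of all genes).

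Valyl-tRNA synthetase, Vars, had the lowest log2 difference of the family in TLR9KO. It was 19.9, 26.2, 21.9 and 26.5 RPKM in TLR9KO and 50.1, 39.7 and 41.2 RPKM in WT, with no overlap (-0.86 ± 0.16, limma adjusted p = 0.00257). Aars, for alanine, was 38.6, 36.9, 27.5 and 35.4 RPKM in TLR9KO and 63.1, 52.3 and 60.5 RPKM in WT (-0.75 ± 0.12, limma adjusted p = 0.00125). Here too every TLR9KO library lay below every WT library. Gars, for glycine, was 46.2, 56.3, 43.7 and 47.2 RPKM in TLR9KO and 82.8, 75.9 and 71.5 RPKM in WT (-0.66 ± 0.10, limma adjusted p = 0.00103). Sars, for serine, was 42.7, 41.3, 31.4 and 36.7 RPKM in TLR9KO and 62.3, 51.7 and 57.7 RPKM in WT (-0.58 ± 0.13, limma adjusted p = 0.00622). Neither gene had overlapping groups.

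Mars, for methionine and a member of the multisynthetase complex, was tightly grouped, at 13.4, 14.0, 13.8 and 15.0 RPKM in TLR9KO and 22.1, 20.4 and 20.1 RPKM in WT (-0.54 ± 0.07, limma adjusted p = 0.000558). Qars, for glutamine, was 34.9, 41.3, 41.3 and 37.4 RPKM in TLR9KO and 53.2, 52.3 and 50.7 RPKM in WT (-0.42 ± 0.08, limma adjusted p = 0.00395). Both were lower in every TLR9KO library than in any WT library. Iars, for isoleucine, was 11.0, 11.6, 9.05 and 10.9 RPKM in TLR9KO and 15.9, 16.3 and 12.6 RPKM in WT (-0.45 ± 0.11, limma adjusted p = 0.0113). Yars, for tyrosine, was 13.4, 14.3, 11.5 and 14.4 RPKM in TLR9KO and 20.1, 17.2 and 17.5 RPKM in WT (-0.42 ± 0.11, limma adjusted p = 0.0141). The groups of these 2 genes did not overlap either, but without WT replicate 1 neither passed (Iars -0.41, adjusted p = 0.0537, and Yars -0.36, adjusted p = 0.0694), and after correction for GC content and length Yars had an adjusted p of 0.0549. Without WT replicate 1 the family as a whole had 9 genes past the threshold instead of 12.

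Dars, for aspartate, went the other way. It measured 24.1, 29.7, 25.3 and 23.4 RPKM in TLR9KO and 18.0, 17.7 and 15.5 RPKM in WT (0.56 ± 0.09, limma adjusted p = 0.00156), with no overlap. The transcript of Dars has the lowest GC content of the cytosolic set, 41.2%, and with the GC and length correction its difference was 0.01 (adjusted p = 0.954). Of the 8 enzymes of the multisynthetase complex 3 fell (Iars, Mars and Qars) and 1 rose (Dars), and of the 12 outside it 5 fell and 0 rose, beside 10.6% falling and 20.0% rising among all genes. Split by catalytic class, 5 of 9 class I and 3 of 10 class II cytosolic genes fell, and the difference between the classes was not tested. Among members that did not pass in this comparison, Wars, which is induced by interferon gamma in human cells, was 36.5 ± 5.51 RPKM in TLR9KO and 43.8 ± 1.62 RPKM in WT. Wars, Cars, Farsa, Farsb, Hars, Kars, Lars and Tars passed none of the 3 tests, with differences against WT from -0.31 (Farsb) to 0.14 (Tars) in STAT3KO and from -0.27 (Wars) to -0.04 (Tars) in TLR9KO. With the GC and length correction Farsb, a subunit of the phenylalanine enzyme (-0.49, adjusted p = 0.0398), Lars (-0.34, adjusted p = 0.0164), Nars (-0.27, adjusted p = 0.0296) and Hars (-0.22, adjusted p = 0.0329) also fell in TLR9KO. Farsb fell with that correction in STAT3KO too (-0.60, limma adjusted p = 0.00699).

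**Figure D3:**
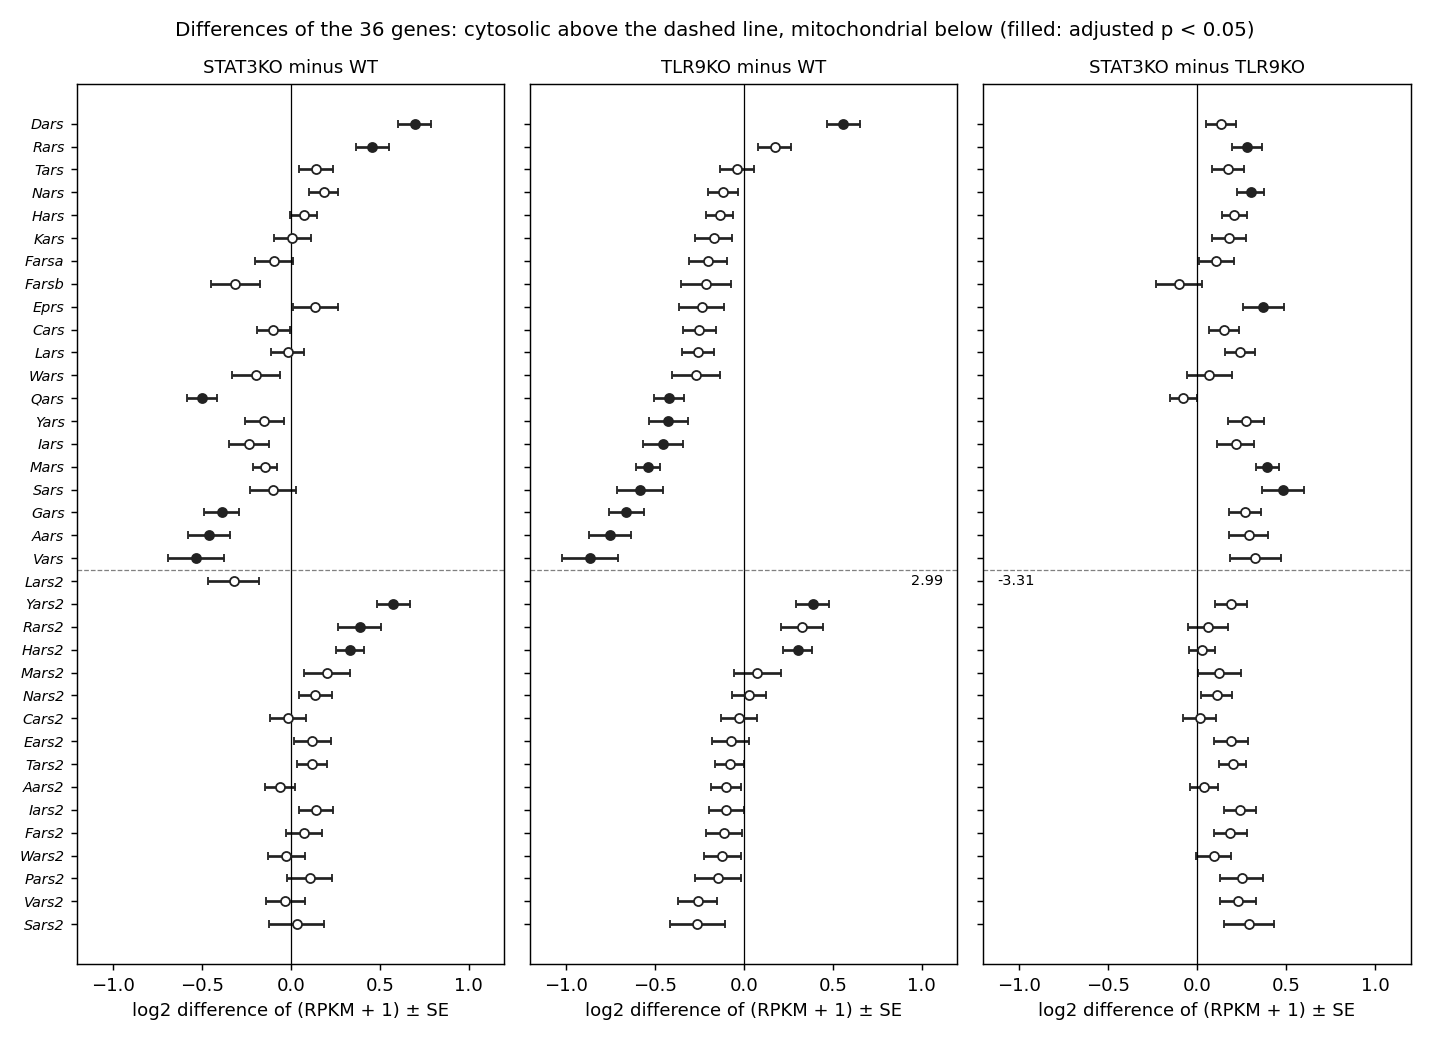
Log2 difference of (RPKM + 1) ± SE of the 36 genes in the 3 comparisons, cytosolic genes above the dashed line and mitochondrial genes below it, filled where the limma adjusted p was below 0.05. The values of Lars2 beyond the axis are written as 2.99 and -3.31, and 8 of the 20 cytosolic points in TLR9KO minus WT are filled on the negative side.

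STAT3KO was compared with the same 3 WT libraries, so the results against WT share their controls. In STAT3KO 4 of 20 cytosolic synthetases fell, 2 rose and 14 did not pass, with a median log2 difference of -0.10, and 3 of 16 mitochondrial ones rose, with a median of 0.11. Among all genes tested 14.8% fell and 29.2% rose (44.0% in either direction), with a median of 0.09. By position of the libraries, 7 of the 36 members lay wholly above WT and 5 wholly below, against 30.8% and 16.9% of all genes (47.7% in either direction). Median-ratio scaling moved the median of all genes to -0.02 and gave 2 cytosolic rises and 7 falls, with 2 rises and 1 fall among the mitochondrial genes (20.5% and 21.7% of all genes rose and fell). With the GC and length correction the cytosolic counts were 1 rise and 3 falls, and the mitochondrial 3 and 0 (20.5% and 18.3% of all genes, 38.8% in either direction). The 3 mitochondrial rises were then those of Hars2, Vars2 and Yars2, without Rars2.

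Qars fell in STAT3KO, at 35.2, 39.2, 34.1 and 38.2 RPKM against 53.2, 52.3 and 50.7 RPKM in WT (-0.50 ± 0.08, limma adjusted p = 0.000886). Gars was 58.8, 62.1, 54.0 and 58.4 RPKM in STAT3KO and 82.8, 75.9 and 71.5 RPKM in WT (-0.39 ± 0.10, limma adjusted p = 0.00796). Both genes were lower in every STAT3KO library than in any WT library. Aars was 44.6, 44.1, 39.8 and 40.5 RPKM in STAT3KO and 63.1, 52.3 and 60.5 RPKM in WT (-0.46 ± 0.12, limma adjusted p = 0.00857), also without overlap, and corrected for GC content and length it did not pass (-0.17, adjusted p = 0.117). Vars was 26.2, 39.8, 26.9 and 27.7 RPKM in STAT3KO and 50.1, 39.7 and 41.2 RPKM in WT (-0.53 ± 0.16, limma adjusted p = 0.0178). Replicate 2 of STAT3KO, at 39.8 RPKM, overlapped the WT range, and Vars did not pass without WT replicate 1 (-0.43, adjusted p = 0.0785) or corrected for GC content and length (-0.25, adjusted p = 0.181).

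The cytosolic rises in STAT3KO were Dars and Rars, which both belong to the multisynthetase complex. Dars was 28.8, 27.9, 27.1 and 28.8 RPKM in STAT3KO and 18.0, 17.7 and 15.5 RPKM in WT (0.70 ± 0.09, limma adjusted p = 0.000209), and after correction for GC content and length it still passed, at 0.27 (adjusted p = 0.0264). Rars, for arginine, was 44.8, 44.0, 37.2 and 43.0 RPKM in STAT3KO and 31.5, 30.2 and 29.6 RPKM in WT (0.46 ± 0.09, limma adjusted p = 0.00244), but 0.17 with the correction (adjusted p = 0.127). Neither gene had overlapping groups. Sars, one of the falls of TLR9KO, was 57.7, 59.9, 45.5 and 50.8 RPKM in STAT3KO and overlapped WT (-0.10, limma adjusted p = 0.555).

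Set directly against TLR9KO, STAT3KO had 5 cytosolic synthetases higher and 0 lower, and Lars2 was the only mitochondrial gene past the threshold. In this comparison 13.4% of all genes rose, 9.46% fell, and the median was 0.06, while the cytosolic median was 0.23 and the mitochondrial 0.16. By position of the libraries 12 members lay wholly above TLR9KO and 1, Lars2, wholly below, against 16.4% and 10.6% of all genes. Mars was 18.5, 19.1, 18.2 and 19.3 RPKM in STAT3KO and 13.4, 14.0, 13.8 and 15.0 RPKM in TLR9KO (0.39 ± 0.06, limma adjusted p = 0.00228). Sars was 57.7, 59.9, 45.5 and 50.8 RPKM in STAT3KO and 42.7, 41.3, 31.4 and 36.7 RPKM in TLR9KO (0.48 ± 0.12, limma adjusted p = 0.0147). Neither pair of groups overlapped.

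Nars, for asparagine, was 58.4, 62.5, 58.9 and 61.6 RPKM in STAT3KO and 48.5, 51.5, 49.6 and 45.6 RPKM in TLR9KO (0.30 ± 0.08, limma adjusted p = 0.018). Eprs, which joins both glutamate and proline, was 34.8, 30.3, 27.8 and 32.1 RPKM in STAT3KO and 26.9, 26.7, 21.5 and 20.8 RPKM in TLR9KO (0.37 ± 0.12, limma adjusted p = 0.041). Rars averaged 42.2 ± 3.46 RPKM in STAT3KO and 34.5 ± 3.17 RPKM in TLR9KO (0.28 ± 0.09, limma adjusted p = 0.0352), with 1 STAT3KO library inside the TLR9KO range. These 3 calls were lost with median-ratio scaling (adjusted p = 0.0732 to 0.0883; 8.71% of all genes then rose) and without TLR9KO replicate 4 (0.056 to 0.114). In both cases 3 genes of the family passed instead of 6. Leaving out STAT3KO replicate 1, 2 or 4 left 4 genes, without Eprs and Rars (adjusted p = 0.0691 to 0.109), and leaving out TLR9KO replicate 2 gave 9. Eprs also missed the threshold without TLR9KO replicate 3 (0.0878) or WT replicate 1 (0.052), and Rars without TLR9KO replicate 1 (0.0699). With the GC and length correction 8 cytosolic genes rose and 0 fell (9.9% and 9.68% of all genes).

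Of the 15 mitochondrial synthetases other than Lars2, 3 rose in STAT3KO (20.0%) and 2 in TLR9KO (13.3%). Both shares were below those of all genes, 29.2% in STAT3KO and 20.0% in TLR9KO. Yars2, for tyrosine, was 4.54, 4.63, 4.45 and 5.00 RPKM in STAT3KO, 4.01, 4.09, 4.35 and 3.40 RPKM in TLR9KO and 2.70, 2.49 and 3.21 RPKM in WT. It was higher in every knockout library than in any WT library, by 0.58 ± 0.10 in STAT3KO (limma adjusted p = 0.000792) and 0.39 ± 0.10 in TLR9KO (limma adjusted p = 0.0112). With the GC and length correction the STAT3KO rise was 0.41 (adjusted p = 0.00586) and the TLR9KO value 0.19 (adjusted p = 0.19). Hars2, for histidine, was 4.00, 3.53, 3.61 and 4.15 RPKM in STAT3KO, 3.77, 3.65, 3.62 and 3.84 RPKM in TLR9KO and 2.71, 3.09 and 2.69 RPKM in WT. Its rise was 0.33 ± 0.08 in STAT3KO (limma adjusted p = 0.00655) and 0.30 ± 0.08 in TLR9KO (limma adjusted p = 0.0155), again with no overlap. In TLR9KO it did not pass without WT replicate 1 (adjusted p = 0.065), without WT replicate 3 (0.0589) or with the GC and length correction (0.0528). Hars2 and cytosolic Hars are neighbours that start close together on opposite strands, and whether reads were counted by strand is not given in the sources used here. Hars was 31.6 ± 0.56 RPKM in STAT3KO, 27.2 ± 2.24 RPKM in TLR9KO and 29.9 ± 1.04 RPKM in WT and passed no test.

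Rars2, for arginine, was 6.95, 5.48, 6.99 and 6.94 RPKM in STAT3KO and 5.14, 5.50 and 3.83 RPKM in WT (0.39 ± 0.12, limma adjusted p = 0.0224), and replicate 2 of STAT3KO overlapped WT. This call depended on the treatment of the data: the difference was -0.021 (adjusted p = 0.882) after correction for GC content and length. Without WT replicate 3 it was 0.26 (adjusted p = 0.0996), and without STAT3KO replicate 1, 3 or 4 it was 0.36 (adjusted p = 0.0539 to 0.0559). The other 12 mitochondrial genes, Aars2, Cars2, Ears2, Fars2, Iars2, Mars2, Nars2, Pars2, Sars2, Tars2, Vars2 and Wars2, passed none of the 3 tests. Vars2 rose in STAT3KO against WT with the GC and length correction (0.24, limma adjusted p = 0.0346). With median-ratio scaling Vars2 fell in TLR9KO against WT (-0.31, limma adjusted p = 0.0382). All 15 mitochondrial genes other than Lars2 had positive differences in STAT3KO minus TLR9KO, as did 6270 of the 10557 genes tested, and none of the 15 passed. The signs depended on the scaling: with median-ratio scaling Aars2, Cars2 and Hars2 were negative, and with the GC and length correction Aars2 and Cars2 were negative and Iars2 passed (0.29, limma adjusted p = 0.0185).

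Promoter sequence is shown for the cytosolic members that hold a copy of the composite site of C/EBP and ATF factors, through which ATF4 is known to act on amino acid response genes. The pattern TGATGNAAN was searched on both strands in the RefSeq windows (GRCm38.p6) from 250 bases before to 50 bases after each gene start. It was found in 1299 of 32851 windows (3.95%). Windows were given for 27 of the 36 members, and the pattern was in those of 5 of 13 cytosolic genes (38.5%) and 0 of 14 mitochondrial genes. For each of the 5 genes 1 site is printed, 5′ to 3′ along the strand of its gene as 29 bases, with the match in capitals.
Aars, chr8:111033840-111033868, + strand: agcgggtcacTTTTCATCAgagcgctctg
Gars, chr6:55037960-55037988, + strand: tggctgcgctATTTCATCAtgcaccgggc
Iars, chr13:49682126-49682154, + strand: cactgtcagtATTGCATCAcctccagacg
Tars, chr15:11399656-11399684, - strand: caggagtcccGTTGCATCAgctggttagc
Yars, chr4:129189896-129189924, + strand: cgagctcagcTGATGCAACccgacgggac
The match reads along the gene in Yars and in reverse complement in the other lines. Of the 5 genes, Aars, Gars, Iars and Yars fell in TLR9KO against WT, where 8 of the 20 cytosolic genes and 10.6% of all genes fell. Iars and Yars did not pass without WT replicate 1, nor Yars with the GC and length correction. Mars, Qars, Sars and Vars also fell and are not among the 5. Tars, for threonine, was 17.2 ± 1.38 RPKM in TLR9KO and 17.7 ± 2.15 RPKM in WT and did not pass. Whether the site goes with the falls was not tested. A match is a description of letters in the window, not of binding.

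Genes of the amino acid response list, which share the ATF4 pathway with the cytosolic synthetases, were lower on balance in both knockouts. Of the 28 listed genes 23 were tested, and in TLR9KO against WT 9 fell and 1 rose, with a median log2 difference of -0.29, beside 10.6% falling and 20.0% rising among all genes. Phgdh, the first enzyme of serine synthesis, was 3.91, 5.60, 2.60 and 4.63 RPKM in TLR9KO and 20.5, 16.0 and 13.3 RPKM in WT (-1.77 ± 0.20, limma adjusted p = 0.00031). Slc7a5, a carrier of large neutral amino acids such as leucine, was 19.4, 26.2, 14.3 and 25.7 RPKM in TLR9KO and 67.0, 42.5 and 46.0 RPKM in WT (-1.25 ± 0.20, limma adjusted p = 0.00155). Every TLR9KO library lay below every WT library for both genes. The arginine and lysine carrier Slc7a1 (-1.22 ± 0.19, limma adjusted p = 0.00122) and Aldh18a1, an enzyme of proline synthesis (-0.80 ± 0.12, limma adjusted p = 0.00103), also fell. Atf4 itself was the gene that rose, and is named for that after its values were seen: it was 112, 92.6, 98.3 and 101 RPKM in TLR9KO and 71.1, 63.2 and 82.0 RPKM in WT (0.49 ± 0.13, limma adjusted p = 0.0155). With the GC and length correction the counts were also 9 and 1 (6.48% and 8.51% of all genes fell and rose). With median-ratio scaling they were 9 and 1 as well (14.6% and 15.9% of all genes).

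In STAT3KO against WT 6 genes of this list fell and 3 rose, with a median of -0.31, beside 14.8% falling and 29.2% rising among all genes. The counts were 9 falls and 2 rises with the GC and length correction (18.3% and 20.5% of all genes). They were 10 falls and 3 rises with median-ratio scaling (21.7% and 20.5% of all genes). Aldh18a1 was 11.0 ± 1.25 RPKM in STAT3KO and 23.2 ± 2.28 RPKM in WT (-1.01 ± 0.12, limma adjusted p = 0.000112), and Slc7a1 was 8.38 ± 1.31 RPKM in STAT3KO and 20.1 ± 2.85 RPKM in WT (-1.17 ± 0.19, limma adjusted p = 0.000678). Atf4 was 127, 156, 154 and 116 RPKM in STAT3KO and 71.1, 63.2 and 82.0 RPKM in WT (0.93 ± 0.13, limma adjusted p = 0.000295). Ddit3, a stress-induced partner of the C/EBP factors, was 68.9 ± 4.96 RPKM in STAT3KO and 35.2 ± 9.61 RPKM in WT (0.98 ± 0.14, limma adjusted p = 0.000426). The values of Atf4 and Ddit3 in STAT3KO were above those of all WT libraries. Against TLR9KO, STAT3KO had 6 of the 23 genes higher (26.1%) and 2 lower (8.70%), beside 13.4% and 9.46% of all genes, among them Phgdh (1.55 ± 0.19, limma adjusted p = 0.000474) and Ddit3 (1.00 ± 0.13, limma adjusted p = 0.000794) higher and Gpt2, an alanine aminotransferase (-0.79 ± 0.15, limma adjusted p = 0.00533), lower.

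**Figure D4:**
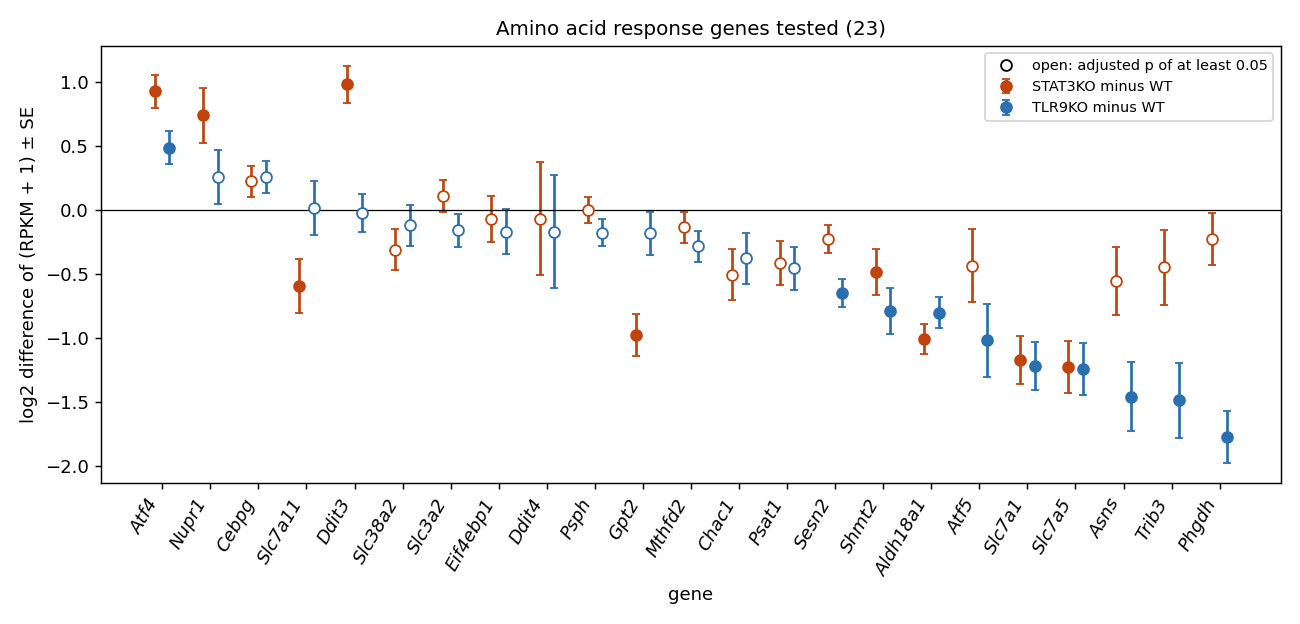
Log2 difference of (RPKM + 1) ± SE of the 23 tested amino acid response genes, STAT3KO minus WT and TLR9KO minus WT, filled where the limma adjusted p was below 0.05. Atf4 is filled above 0 in both comparisons, at 0.93 and 0.49, and Phgdh has the lowest TLR9KO value, -1.77.

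Of the 3 scaffold genes of the multisynthetase complex, 2 rose in STAT3KO and 1 in TLR9KO, where 29.2% and 20.0% of all genes rose. Aimp1 was 28.7, 28.8, 27.5 and 29.0 RPKM in STAT3KO, 17.3, 19.6, 23.7 and 18.2 RPKM in TLR9KO and 13.0, 13.1 and 12.5 RPKM in WT. Its 3 groups were fully separate, with differences of 1.09 ± 0.10 in STAT3KO against WT (limma adjusted p = 2.44e-05), 0.57 ± 0.10 in TLR9KO against WT (limma adjusted p = 0.00195) and 0.52 ± 0.09 between the knockouts (limma adjusted p = 0.00309). Eef1e1 rose in STAT3KO (17.7 ± 3.28 RPKM, against 10.2 ± 0.56 RPKM in WT, limma adjusted p = 0.00188), and Aimp2 passed no test, though with the GC and length correction it fell in STAT3KO (-0.25, limma adjusted p = 0.0498).

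Kinases and phosphatases acting on eIF2 alpha, with eIF2 alpha itself, gave 2 rises and 1 fall of 7 in STAT3KO (28.6% and 14.3%), close to the 29.2% and 14.8% of all genes. In TLR9KO 3 of them rose and 0 fell, beside 20.0% and 10.6% of all genes. With the GC and length correction 1 rose, beside 8.51% of all genes, and with median-ratio scaling 1 rose, beside 15.9%. Eif2s1, which encodes eIF2 alpha, was 23.7 ± 0.61 RPKM in STAT3KO, 20.8 ± 1.83 RPKM in TLR9KO and 14.8 ± 1.09 RPKM in WT, with no overlap between either knockout and WT. It rose by 0.65 ± 0.08 in STAT3KO (limma adjusted p = 0.000179) and by 0.47 ± 0.08 in TLR9KO (limma adjusted p = 0.0023), but corrected for GC content and length the TLR9KO difference was -0.001 (adjusted p = 0.992). Ppp1r15a, a phosphatase subunit that reverses the phosphorylation of eIF2 alpha, was 94.7 ± 25.2 RPKM in STAT3KO, 79.6 ± 8.16 RPKM in TLR9KO and 52.1 ± 11.6 RPKM in WT. It rose in both knockouts (limma adjusted p = 0.00629 in STAT3KO and 0.0366 in TLR9KO), and in TLR9KO it did not pass with median-ratio scaling (adjusted p = 0.0692).

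Of 7 cytosolic elongation factor genes 2 rose and 1 fell in STAT3KO (28.6% and 14.3%), again close to the 29.2% and 14.8% of all genes, and 0 rose and 2 fell in TLR9KO, beside 20.0% and 10.6%. Eef1b2, a subunit of the exchange factor of elongation factor 1, was 137.6 ± 11.8 RPKM in STAT3KO and 86.6 ± 5.90 RPKM in WT (0.66 ± 0.11, limma adjusted p = 0.00101). Eef1a1, which brings charged tRNAs to the ribosome, was 2797 ± 201 RPKM in STAT3KO and 2022 ± 67.4 RPKM in WT (0.47 ± 0.11, limma adjusted p = 0.00661), and missed the threshold once corrected for GC content and length (0.15, adjusted p = 0.203). Eef2, which moves the ribosome along the mRNA, fell in STAT3KO (-0.43 ± 0.12, limma adjusted p = 0.0147), a call lost with that correction (adjusted p = 0.0583), and in TLR9KO (-0.62 ± 0.12, limma adjusted p = 0.00367). Eef1g was the other gene that fell in TLR9KO (-0.31 ± 0.10, limma adjusted p = 0.034).

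Of 22 other genes of mitochondrial translation and tRNA handling, 13 rose and 2 fell in STAT3KO (59.1% and 9.09%), beside 29.2% and 14.8% of all genes. With the GC and length correction 10 rose and 2 fell in STAT3KO, beside 20.5% and 18.3% of all genes. In TLR9KO 7 rose and 3 fell (31.8% and 13.6%), beside 20.0% and 10.6% of all genes. With the GC and length correction 1 rose and 2 fell in TLR9KO, beside 8.51% and 6.48% of all genes. Trnt1, which adds the CCA end to tRNAs, was 7.32 ± 0.95 RPKM in STAT3KO, 7.08 ± 0.42 RPKM in TLR9KO and 3.32 ± 0.51 RPKM in WT (0.94 ± 0.11 and 0.91 ± 0.11 against WT, limma adjusted p = 0.000117 and 0.000461). Tufm, the mitochondrial elongation factor Tu, fell in TLR9KO (29.3 ± 2.82 RPKM, against 43.7 ± 5.22 RPKM in WT, limma adjusted p = 0.00254). Of 10 tested genes of tRNA editing and other tRNA partners, 4 rose in STAT3KO (29.2% of all genes rose), and in TLR9KO 3 rose and 1 fell (20.0% and 10.6% of all genes). With the GC and length correction the TLR9KO counts were 1 and 1 (8.51% and 6.48% of all genes). They include the tRNA-cleaving ribonuclease Ang, at 23.6 ± 4.21 RPKM in STAT3KO, 15.5 ± 2.80 RPKM in TLR9KO and 7.18 ± 1.28 RPKM in WT, and Pstk, a kinase of the selenocysteine tRNA, at 3.59 ± 0.26, 2.58 ± 0.33 and 1.29 ± 0.31 RPKM in STAT3KO, TLR9KO and WT. Both rose in both knockouts (limma adjusted p = 6.81e-05 to 0.00205), but Pstk in TLR9KO lost its call once corrected for GC content and length (0.33, adjusted p = 0.11).

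The log2 differences went with GC content, across all genes and across the members, and across all genes also with transcript length. Over 10428 genes with a GENCODE M21 transcript, the Spearman correlation of the log2 difference with GC content was -0.23 in STAT3KO against WT and -0.55 in TLR9KO against WT. With transcript length it was -0.34 in STAT3KO against WT and -0.19 in TLR9KO against WT. The correction takes both into account, and their separate parts in a lost call were not tested. In TLR9KO the median difference was 0.38 in the lowest of 5 equal bins of genes by GC content and -0.18 in the highest bin. Over the 36 members, which share libraries and depth, the Spearman correlation with GC content was -0.58 in STAT3KO and -0.53 in TLR9KO. Vars, at 60.9% GC, and Aars, at 56.4%, were low in both knockouts, and Dars, at 41.2%, was high in both. With the correction, Vars in TLR9KO was -0.50 (adjusted p = 0.0383) and Aars -0.40 (adjusted p = 0.01), both closer to 0 than before it, while Gars was -0.71 (adjusted p = 0.0021).

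**Figure D5:**
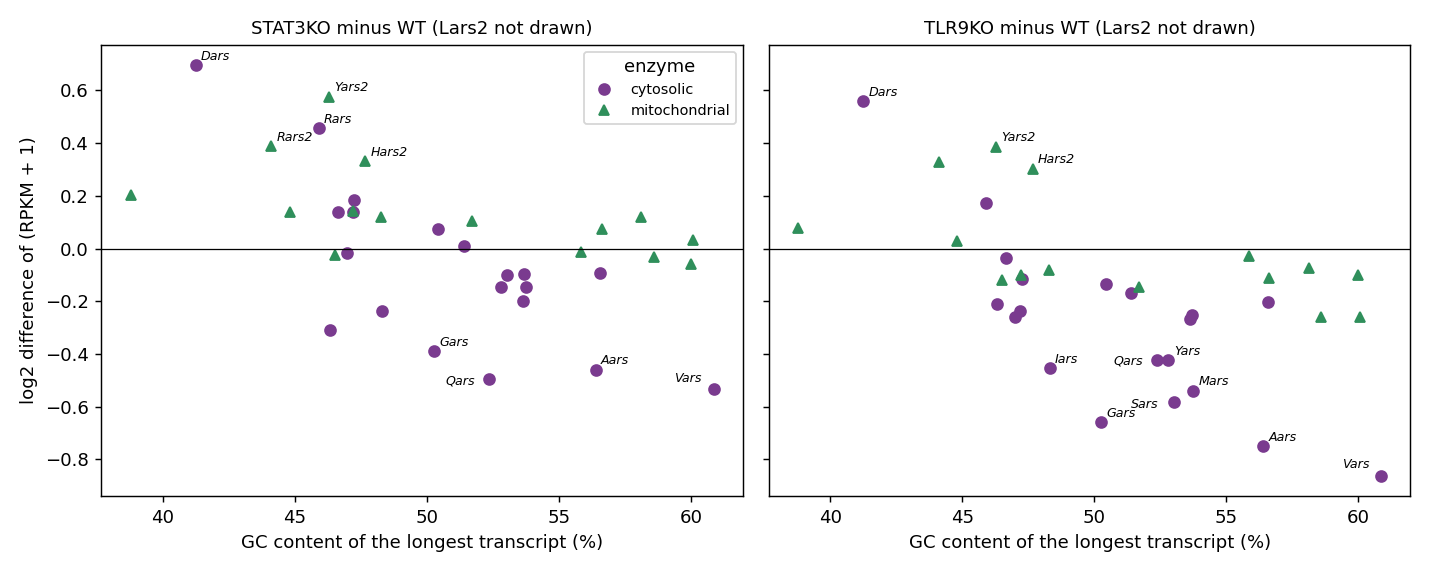
Log2 difference of (RPKM + 1) against the GC content (%) of the longest transcript for the members other than Lars2, STAT3KO minus WT and TLR9KO minus WT, with names where the limma adjusted p was below 0.05. Dars, at 41.2% GC, sits highest and Vars, at 60.9%, lowest in both panels.

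Markers of some other cells differed between the groups. Of all genes tested, 29.2% rose and 14.8% fell in STAT3KO against WT, and 20.0% and 10.6% in TLR9KO against WT. Of 5 fibroblast markers 3 were tested, and all 3 rose in both knockouts, with a summed level of 11.96 to 26.4 RPKM in STAT3KO, 8.36 to 36.9 in TLR9KO and 1.34 to 3.32 in WT. Of 4 erythroid markers 2 were tested and fell in both, with a sum of 1.52 to 31.2 RPKM in STAT3KO, 0.34 to 1.69 in TLR9KO and 24.2 to 96.6 in WT. Neutrophil markers summed to 46.9 to 426 RPKM in STAT3KO, 30.8 to 67.1 in TLR9KO and 29.4 to 59.4 in WT. The 426 RPKM was STAT3KO replicate 2, the next highest STAT3KO library had 77.3 RPKM, and none of the 4 tested passed against WT. Of the dendritic cell markers and of the T and NK cell markers 2 each were tested, and none passed against WT. Of 4 monocyte markers 1 rose and 1 fell in STAT3KO, with a summed level of 551 to 2067 RPKM in STAT3KO, 358 to 744 in TLR9KO and 207 to 414 in WT. Of 2 tested endothelial markers Pecam1, which some myeloid cells also express, fell in STAT3KO (-1.27 ± 0.32, limma adjusted p = 0.00836). Of 6 macrophage markers Emr1, Cd68 and Mertk rose in STAT3KO (0.44 to 0.92, limma adjusted p = 0.0139 to 0.0267), Mrc1 fell (-0.85 ± 0.21, limma adjusted p = 0.00676), and none passed in TLR9KO against WT. With median-ratio scaling Cd68 and Mertk did not pass (adjusted p = 0.0867 and 0.11), nor did Cd68 with the GC and length correction (0.592). The part of these cells in the synthetase differences was not tested.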

How the data were processed

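Libraries of CD11b-positive cells from irradiated tumours were grouped by the genotype in their titles (4 STAT3KO, 4 TLR9KO, 3 WT). The authors deposited 1 RPKM value per gene symbol and library, per the file headers, and the header of TLR9KO replicate 4 names no unit. Tools named in the submitters' processing notes are Bowtie 0.12.7, TopHat 1.3.1, CASAVA 1.7 and Partek, with the build mm9. The annotation, the strand setting and the treatment of multi-mapped reads were not given in the sources used here. From the deposited RPKM, log2(RPKM + 1) was tested for 10557 genes, those averaging at least 1 RPKM, in 1 fit over the 3 groups with limma 3.58.1 (trend) and R 4.3.3. The tests, two-sided, were adjusted by Benjamini-Hochberg over all genes tested, with a threshold of 0.05. A fold change on this scale understates the change of low genes. The procedure was tested on simulated data whose log2 differences exceeded those of every member but Lars2. Differences as small as those members had were not covered. Nothing states that replicates are separate animals, so p-values here speak only of the spread among these samples, and that spread may be technical. Depth was estimated from microRNA values that are whole reads within 0.15 (77.3% to 97.1% of them at the depth chosen).

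The members and gene lists were chosen with earlier results of these data known. Every member is accounted for, differences are printed for those past the threshold and for Lars2, and for each pathway list up to 4 of the genes with the smallest p in a comparison. Cell type markers, Atf4 in TLR9KO and members named for an alternative setting fall outside that rule and were chosen after their values were seen. Alternatives were a pseudocount of 0.1, no filter, a mean of at least 5 RPKM, median-ratio scaling, array weights, a correction for GC content and length (a spline with 5 degrees of freedom, for 98.8% of the genes tested), a replicate block with and without it, and leaving out each library. Besides the promoter sites printed, 1 further site is not reported here, nor is the value of 1 marker gene.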

Additional observations from a re-analysis of the deposited data

Results flagged for a closer look

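A library was marked where its gap to the nearest other library, as a share of the group's range, passed Dixon's critical value for groups of 4. This was so in 4 of the 72 groups of 4 (36 genes in 2 genotypes), and chance gives about 1 in 20. Kars, for lysine, was 64.83 RPKM in STAT3KO replicate 2, against 52.34 to 53.41 RPKM in the other STAT3KO libraries. Vars was 39.84 RPKM in STAT3KO replicate 2, against 26.22 to 27.74 RPKM in the other STAT3KO libraries. Rars2 was 5.48 RPKM in STAT3KO replicate 2, against 6.94 to 6.99 RPKM in the other STAT3KO libraries. Ears2, for glutamate in mitochondria, was 3.68 RPKM in STAT3KO replicate 3, against 3.58 to 3.59 RPKM in the other STAT3KO libraries, all within a narrow range. The neutrophil marker sum was also highest in STAT3KO replicate 2, at 426 RPKM, and its part in these values was not tested.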

How the results depend on the processing

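Over 19 alternatives (18 where the stricter filter removed the gene), Dars, Gars, Qars and Yars2 kept their calls in STAT3KO against WT, as did Aars, Gars, Mars, Qars, Sars and Lars2 in TLR9KO against WT and Mars, Sars and Lars2 in STAT3KO against TLR9KO. Rars2 in STAT3KO against WT reversed to -0.021 with the GC and length correction and to -0.039 with that correction and the replicate block. Median-ratio scaling moved the STAT3KO medians against WT to -0.23 (cytosolic) and 0.0063 (mitochondrial), and leaving out 1 library gave a mitochondrial median of 0.049 (without WT replicate 2) to 0.15. Lars2 in STAT3KO against WT passed with array weights (-0.42, adjusted p = 0.028) and median-ratio scaling (-0.45, adjusted p = 0.0183), and leaving out 1 library gave -0.44 to -0.22. Members past the threshold in STAT3KO against TLR9KO, 6 in the main analysis, numbered 10 with the GC and length correction, 11 with array weights, 3 with median-ratio scaling and 3 to 9 without 1 library. They numbered 8 to 11 in STAT3KO against WT and 9 to 14 in TLR9KO against WT without 1 library. The causes were not tested.

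Same-numbered libraries did not all deviate together (correlations of deviations from the group means from -0.29 to 0.49 over 10 pairs), and not every library correlated best with its own number, so the numbers were not taken as pairs. With a replicate block 8, 11 and 5 members passed in STAT3KO against WT, TLR9KO against WT and STAT3KO against TLR9KO, and the calls of Rars2, Hars2 and Rars in these comparisons were lost, 1 in each. The block together with the GC and length correction also ended the calls of Hars2 in STAT3KO against WT (0.23, adjusted p = 0.0548) and Vars in TLR9KO against WT (-0.51, adjusted p = 0.0579), which passed with either alone. Members with low RPKM and short transcripts rest on the fewest reads.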
